A study of Mus musculus with 2 samples.

Results

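The genes of the muscle miRNAs miR-1, miR-133 and miR-206 were examined in microRNA-seq libraries of the gastrocnemius, the large calf muscle. They were chosen by name: Mir206 with Mir133b, Mir1a-1 with Mir133a-2, Mir1a-2 with Mir133a-1, and Mir1b and Mir133c, which are 8 of the 2202 miRNA gene rows in the count tables. The design has 1 group of 2 libraries, from male B6CASTF1/J mice aged 25 days obtained from The Jackson Laboratory. B6CASTF1/J is an F1 hybrid whose mothers come from the C57BL/6J laboratory strain and whose fathers come from the wild-derived CAST/EiJ strain. In the labels the libraries are biological replicates 1 and 2 with male animals numbered apart, yet both name 1 donor, and the spread between them may therefore be technical. No treatment, mutation or second tissue was compared, and the whole muscle was used, so that each library mixes RNA of all its cells.

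miR-1 and miR-206 belong to 1 seed family, and miR-133 has an unrelated sequence but is known to be made from the same primary transcripts. Each such transcript carries 1 gene of either kind. The hairpins are cut from it and processed into mature arms, named 5p and 3p for their side of the hairpin. miR-1 and miR-133 are known from both heart and skeletal muscle, whereas miR-206 is known from skeletal muscle, where it is linked to differentiation of muscle precursors and to repair of the nerve-muscle junction. Transcription from these loci is driven by muscle factors such as MyoD, MEF2 and SRF.

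By symbol, 3 of the 8 genes were matched to mature arms in the RefSeq table, with both arms of miR-206 and miR-133b and the 5p arm of miR-1a-1 (build GRCm38.p6, the same assembly as mm10), and the arms are shown because what reads can be placed at a single locus depends on them. Capitals mark the seed, bases 2 to 8 from the 5′ end, which pairs with target mRNAs. Mir133a-1, Mir133a-2, Mir1a-2, Mir1b and Mir133c are named only, and the 3p arm of miR-1 is not shown or compared as an arm here.
mmu-miR-206-3p: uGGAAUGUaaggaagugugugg
mmu-miR-206-5p: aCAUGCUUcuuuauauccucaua
mmu-miR-1a-1-5p: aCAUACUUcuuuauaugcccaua
mmu-miR-133b-3p: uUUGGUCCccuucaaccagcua
mmu-miR-133b-5p: gCUGGUCAaacggaaccaaguc
The 5p arms of miR-206 and miR-1a-1 are both 23 bases long and differ at 3 positions, counted from the 5′ end of the miR-206 arm: G5A, which lies in the seed, C17G and U19C. The 22-base 3p arm of miR-206 has its nearest match outside its own locus in the Mir1a-1 hairpin, with 4 mismatches and none in the seed. The 22-base 3p arm of miR-133b has its nearest match in the Mir133a-1 hairpin, with 1 mismatch, at the last base. Its 5p arm is 3 mismatches away from Mir133a-1, and the 5p arm of miR-1a-1 is 2 mismatches away from Mir1a-2. These matches were sought only among the annotated miRNA hairpins. Where hairpins tied, only the first in alphabetical order was named, and Mir133a-2 shares the same 21 bases of miR-133b-3p as Mir133a-1.

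The hairpin of Mir206 is 73 bases long and that of Mir133b 119 bases, shown here with both mature arms in capitals because these neighbours had the most unequal counts of any pair of partners described below.
Mir206: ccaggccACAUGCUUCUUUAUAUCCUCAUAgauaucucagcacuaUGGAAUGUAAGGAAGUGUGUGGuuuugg
Mir133b: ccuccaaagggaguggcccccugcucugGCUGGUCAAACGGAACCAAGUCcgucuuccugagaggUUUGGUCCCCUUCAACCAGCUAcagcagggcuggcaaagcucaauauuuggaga
Between Mir206 and Mir133b no shared stretch was longer than 6 bases.

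Coordinates are mm10 with the GENCODE M21 annotation. Mir206 (chromosome 1, 20679010 to 20679082, plus strand) and Mir133b (chromosome 1, 20682769 to 20682887, plus strand) lie 3686 bases apart in the long noncoding RNA gene Gm28653, Mir206 in an intron and Mir133b in an exon. Mir1a-1 (chromosome 2, 180389048 to 180389124, plus strand) and Mir133a-2 (chromosome 2, 180398379 to 180398482, plus strand) lie 9254 bases apart, with no host in this annotation. Mir133a-1 (chromosome 18, 10782909 to 10782976, minus strand) and Mir1a-2 (chromosome 18, 10785481 to 10785552, minus strand) lie 2504 bases apart in an intron of the noncoding gene Mir133a-1hg, which itself runs against an intron of Mib1, a ubiquitin ligase gene. Mir1b (chromosome 18, 10785446 to 10785567) lies on the plus strand over the whole of Mir1a-2. Mir133c (chromosome 2, 29475215 to 29475294, minus strand) stands alone, opposite an intron of Med27, a Mediator subunit gene.

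Gene counts came to 1491341 reads in replicate 1 and 2028332 in replicate 2, and levels are given as CPM, counts scaled to these totals, with means ± SD over the 2 libraries (n = 2). Counts were not divided by gene length, since a read covers a mature arm and not the gene. The gene rows leave out reads with more than 1 place in the genome. These numbered 5227800 in replicate 1 and 7067363 in replicate 2, or 69.8% and 71.8% of all reads, so every level below is a level of reads placed at 1 locus. Known markers of muscle were present: the 9 striated muscle markers held 5.51% and 4.84% of gene counts in replicates 1 and 2, and none was at 0 in both. Mir206 alone held 5.34% and 4.65%, and 6 of the 9 are genes chosen here. Outside those genes, Mir208b, Mir499 and Mir486 of the list held 0.125% and 0.144% together with the cardiac Mir208a. Markers of other cell types were present too, with 7.83% and 8.75% for the endothelial Mir126a and 5.89% and 7.87% for Mir143 and Mir145a of smooth muscle and pericytes. The erythroid genes Mir451a and Mir144 held 0.0174% and 0.0355%, and the leukocyte genes Mir142, Mir223 and Mir150 held 0.160% and 0.143%. Of 6 neuronal genes 5 had no count, as had 1 of 6 epithelial genes, Mir200a. The neuronal genes are Mir124a and Mir9 paralogs, and reads matching several paralogs would be in no gene row. Zeros of these paralogs therefore do not show absence of the miRNAs. The 6 epithelial genes together held 0.0220% and 0.0251%, most of it from Mir203 with 317 and 493 counts. The hepatic Mir122 had 20 and 23 counts.

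Mir206 had nearly all the counts of the 8 genes. It had 79589 counts in replicate 1 and 94404 in replicate 2, which is 53367 and 46543 CPM, or 49955 ± 4826 CPM. Both libraries thus had Mir206 among their abundant miRNA genes, and it was the seventh by mean CPM, with 6 genes above it. Its share of the counts of the 8 genes was 99.1% in replicate 1 (exact Clopper-Pearson 95% interval 99.0 to 99.2) and 99.1% in replicate 2 (99.0 to 99.1). As a share of all reads, aligned or not, Mir206 made up 1.06% and 0.959%. The reads placed at several loci outnumbered those of Mir206 by 65.7 to 1 in replicate 1 and 74.9 to 1 in replicate 2.

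The miR-1 genes, whose seed family is that of miR-206, were far lower in reads placed at 1 locus. Mir1a-2 had 660 and 775 counts, 412 ± 42.8 CPM, and stood at rank 91. Its paralog Mir1a-1, on chromosome 2, had 15 and 23 counts, 10.7 ± 0.906 CPM, at rank 248. Mir1a-2 exceeded Mir1a-1 by 44.0-fold in replicate 1 (exact 95% interval 26.5 to 79.1) and by 33.7-fold in replicate 2 (22.3 to 53.5). The intervals of the libraries overlapped. Exact reads lying wholly within the 28 bases that these 2 hairpins share are in neither row. The fold therefore compares the remaining reads and is not a measure of the output of each locus. Mir1b, on the strand opposite Mir1a-2, had 1 and 2 counts.

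All 4 miR-133 genes were at low counts. Mir133a-1 had 18 and 43 counts, 16.6 ± 6.46 CPM, and Mir133b had 18 and 41 counts, 16.1 ± 5.76 CPM. Mir133a-2 had 1 and 8 counts, 2.31 ± 2.31 CPM. Mir133c had no count in either library, where 3 counts, the limit that a count of 0 allows, would be 2.01 CPM in replicate 1 and 1.48 in replicate 2. Together the 4 genes held 37 counts in replicate 1 and 92 in replicate 2, against 80265 and 95204 for the 4 genes of the miR-1 and miR-206 family. Intervals and limits cover counting error only, since copies made by PCR are not independent molecules.

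**Figure D1:**
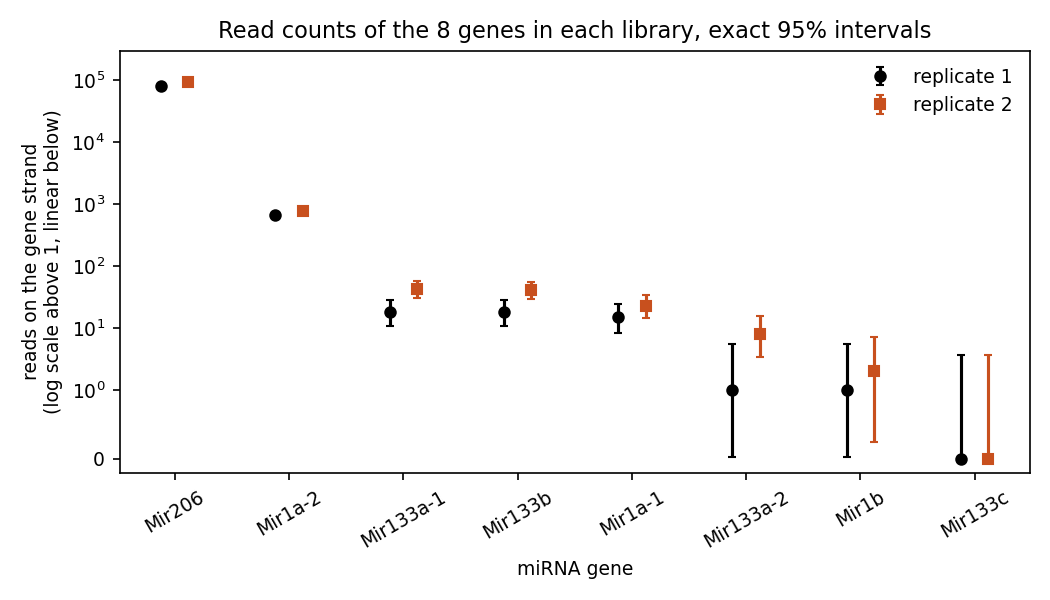
Reads on the strand of the gene (log scale above 1) for each of the 8 genes, with replicate 1 as circles, replicate 2 as squares and exact 95% Poisson intervals as bars. Mir206 stands at 79589 and 94404 counts and Mir1a-2 at 660 and 775, while no other gene passes 43.

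By level the order was Mir206, Mir1a-2, Mir133a-1, Mir133b, Mir1a-1, Mir133a-2, Mir1b and Mir133c. The exact Poisson intervals of Mir206 and Mir1a-2 were apart from each other and from all lower genes in both libraries. Those of Mir133a-1, Mir133b and Mir1a-1 overlapped in both libraries, from 8.40 to 28.4 counts over the 3 genes in replicate 1 and from 14.6 to 57.9 in replicate 2, so their order is not resolved. Mir133a-2 was below Mir1a-1 in replicate 1, with an interval of 0.0253 to 5.57 counts, but the intervals overlapped in replicate 2 (3.45 to 15.8 against 14.6 to 34.5). Mir133a-2, Mir1b and Mir133c overlapped one another. The 8 genes had a median of 13.4 CPM, and 7 of them had any count, whereas over all 2202 gene rows the median was 0 CPM and 570 had any count. Among genes whose counts in both libraries added up to at least 10, the median was 16.6 CPM for the 5 described here and 106 CPM for all 313.

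**Figure D2:**
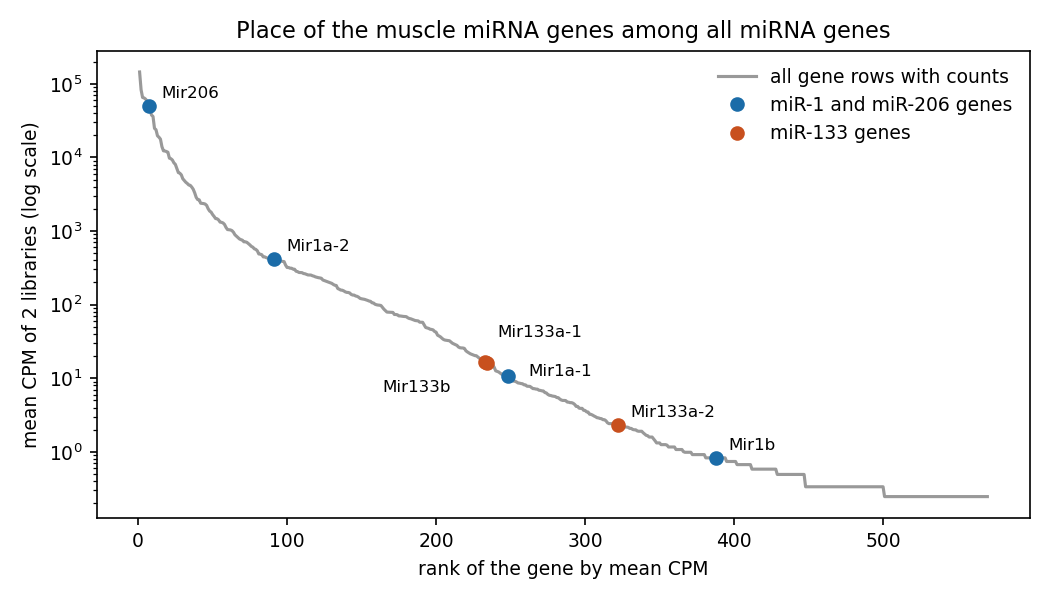
Mean CPM of the 2 libraries (log scale) against the rank of each miRNA gene with counts; the grey line is all genes, and points mark miR-1 and miR-206 genes in blue and miR-133 genes in orange. Mir206 lies at the top of the curve at 49955 CPM, Mir1a-2 at rank 91, and the rest beyond rank 200; Mir133c, at 0, is not drawn.

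Partner genes had unequal counts at all 3 loci. Whether partners came from 1 transcript was not tested, and an annotated transcript of Gm28653 holds Mir133b without Mir206. Mir206 exceeded Mir133b by 4422-fold in replicate 1 (exact 95% interval 2798 to 7461) and by 2303-fold in replicate 2 (1697 to 3209). At the locus on chromosome 18, Mir1a-2 exceeded Mir133a-1 by 36.7-fold (23.0 to 62.3) and 18.02-fold (13.3 to 25.1). At the locus on chromosome 2, Mir1a-1 exceeded Mir133a-2 by 15.0-fold (2.31 to 631) and 2.88-fold (1.24 to 7.43). In each case the miR-1 or miR-206 gene was the higher partner in both libraries, and the ratio was smaller in replicate 2. On the log2 scale, with 0.5 added to each count, the ratios were 11.61 ± 0.65, 4.66 ± 0.71 and 2.42 ± 1.34 (n = 2). No test was run on these ratios, and the interval for the locus on chromosome 2 rests on 1 count of Mir133a-2 in replicate 1. The ratios are of reads placed at 1 locus, and partners differ in how much of their hairpin occurs at other loci, as described next. What this adds to the ratios was not tested.

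The genes differed in how much of their hairpin occurs at a second annotated locus. For each hairpin, every stretch of 20 bases was looked up on both strands of all other annotated miRNA hairpins, not counting a gene that covers the same place on the opposite strand. None of the 54 stretches of Mir206 and none of the 61 of Mir133c was found elsewhere. Mir133b had 2 of 100, Mir1a-1 9 of 58, Mir1a-2 9 of 53, Mir133a-2 17 of 85, Mir133a-1 17 of 49 and Mir1b 9 of 103. Of 267 genes with at least 10 counts in both libraries, 70 (26.2%) had such a stretch, as did 4 of the 5 genes described here that reached that level: Mir133b, Mir1a-1, Mir1a-2 and Mir133a-1.

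The longest shared stretches lay towards the 3′ end of the Mir1a-1, Mir133a-2, Mir133b and Mir206 hairpins. Mir1a-1 and Mir1a-2 share 28 bases, and Mir133a-1 and Mir133a-2 share 31. Mir133b shares 21 bases with both miR-133a hairpins, and these are bases 1 to 21 of the 22-base miR-133b-3p printed above. Mir133c shares 16 bases with Mir133b and 15 with each miR-133a hairpin, and Mir206 shares 13 with both miR-1a hairpins. With stretches of 22 bases Mir133b had none of 98 found elsewhere, because its 21 shared bases are shorter than such a stretch. Mir133a-1 had 13 of 47. Counts were 18 and 41 for Mir133b and 18 and 43 for Mir133a-1, and a link to shared sequence was not tested. Across the 267 genes, the 70 with a shared 20-base stretch had a median of 138 CPM and the others 194 CPM. With 22-base stretches the medians were 105 and 209 CPM. The 267 genes were kept for their reads placed at 1 locus, so genes with almost no such reads are left out of these medians. A shared 20-base stretch occurred in 50.3% of all 2202 gene rows, against 26.2% of the 267. Exact reads lying wholly within the 28 or the 31 shared bases match both hairpins of the pair, so the gene rows leave them out. How reads with a mismatch were aligned, as at base 22 of miR-133b-3p, is not given in the sources used here. For the miR-1a, miR-133a and miR-133b hairpins, the loss of reads to the multimapping row and a low output cannot be told apart. Mir133c had none of 61 stretches found at another annotated hairpin, and a cause of its 0 counts was not tested.

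**Figure D3:**
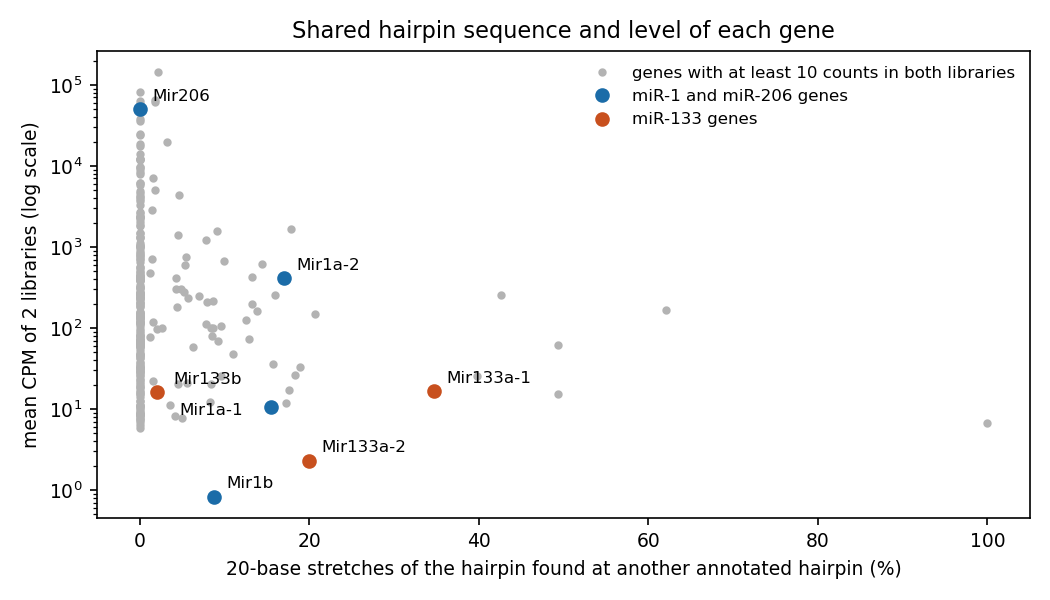
Mean CPM (log scale) against the percentage of 20-base hairpin stretches found at another annotated hairpin, for genes with at least 10 counts in both libraries (grey) and for the miR-1 and miR-206 genes (blue) and miR-133 genes (orange) with any count. Mir206 stands at 0% with 49955 CPM, Mir1a-2 at 17.0% with 412 CPM and Mir133a-1 at 34.7% with 16.6 CPM.

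Strand mattered at 1 locus. The tables give each gene 3 counts: strand ignored, its own strand, and the strand opposite. Mir206 had the same 79589 and 94404 counts in the first 2 columns and none on the opposite strand. Allowing 3 counts for a count of 0, its opposite-strand share is at most 0.00377% in replicate 1 and 0.00318% in replicate 2. By the exact Clopper-Pearson 95% interval, the share on its own strand was at least 99.995% and 99.996%. Mir133b, Mir133a-1, Mir133a-2 and Mir1a-1 likewise had every read on their own strand, though with 43 reads or fewer each. Mir1a-2 had 660 and 775 reads on its strand against 1 and 2 on the opposite strand, or 99.8% (exact Clopper-Pearson 95% interval 99.2 to 99.996) and 99.7% (99.1 to 99.97). Mir1b, which covers the same place, had the mirror image, with 1 and 2 reads on its own strand and 660 and 775 on the opposite strand.

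In the column without regard to strand, Mir1a-2 and Mir1b both had 0 counts in both libraries. Their reads on the gene strand equalled 0.175% and 0.152% of the reads that this column lists as ambiguous. Of all genes with at least 10 counts on their strand, 23 of 268 in replicate 1 and 23 of 288 in replicate 2 had 0 without regard to strand, so Mir1a-2 shared this with other genes. Among all genes with at least 10 reads on both strands together, 254 of 289 in replicate 1 and 272 of 308 in replicate 2 had every read on the gene strand.

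**Figure D4:**
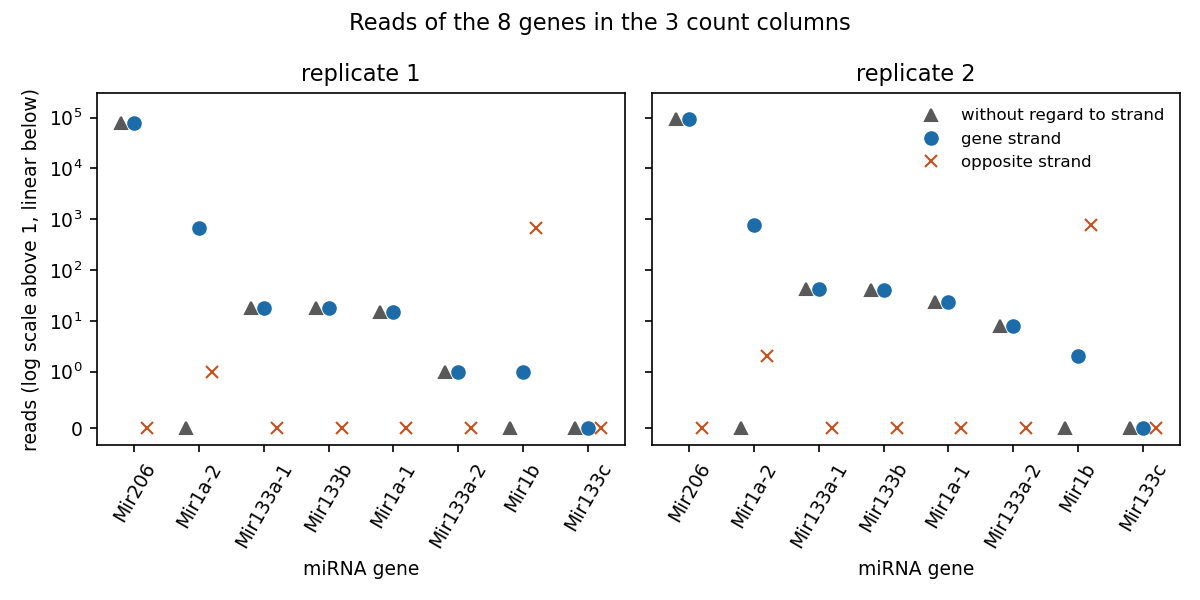
Reads (log scale above 1) of the 8 genes in the columns without regard to strand (triangles), on the gene strand (circles) and on the opposite strand (crosses), for replicates 1 and 2. Mir1a-2 has 660 and 775 reads on its strand and 0 without strand, Mir1b has these same reads on its opposite strand, and Mir206 has none there.

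The libraries were then compared gene by gene, with replicate 2 set against replicate 1. Mir206 was lower in replicate 2, at -0.19 on the log2 scale with an exact 95% interval of -0.20 to -0.17 (adjusted p = 1.70e-157 by the exact binomial test). Mir1a-2 was lower by a like amount, at -0.20 (-0.35 to -0.05, binomial test adjusted p = 0.0255). Over all genes, 120 of 313 (38.3%) passed this test in either direction, 62 higher (19.8%) and 58 lower (18.5%). Of the 8 genes, 5 had enough counts to be tested, of which 2 were lower, 0 higher and 3 did not pass. The test carries counting error only and speaks of these 2 libraries, not of a condition. With the spread between the libraries added by an edgeR common dispersion, Mir206 and Mir1a-2 both had an adjusted p = 1 (edgeR exact negative binomial test), as had every other tested member. Since these libraries also gave the dispersion, that test is scaled to their own differences.

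The tested miR-133 genes had positive log2 ratios that missed the threshold. Mir133a-1 had 0.82 (-0.0013 to 1.70, binomial test adjusted p = 0.111) and Mir133b 0.75 (-0.08 to 1.64, binomial test adjusted p = 0.133). Mir1a-1 had 0.18 (-0.82 to 1.23, binomial test adjusted p = 0.840). These intervals span from no difference to more than 2-fold, so for these 3 genes, taken singly, a difference was not resolved at these counts. The 37 and 92 counts of all 4 miR-133 genes together were 0.00248% of gene counts in replicate 1 (exact Clopper-Pearson 95% interval 0.00175 to 0.00342) and 0.00454% in replicate 2 (0.00366 to 0.00556). These intervals did not overlap, but they cover counting error only and not the spread between libraries, and the sum was not tested. Mir133a-2, Mir1b and Mir133c, with 9, 3 and 0 counts in all, were not tested. The median log2 ratio was 0.18 over the 5 tested genes and 0.05 over all tested genes.

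**Figure D5:**
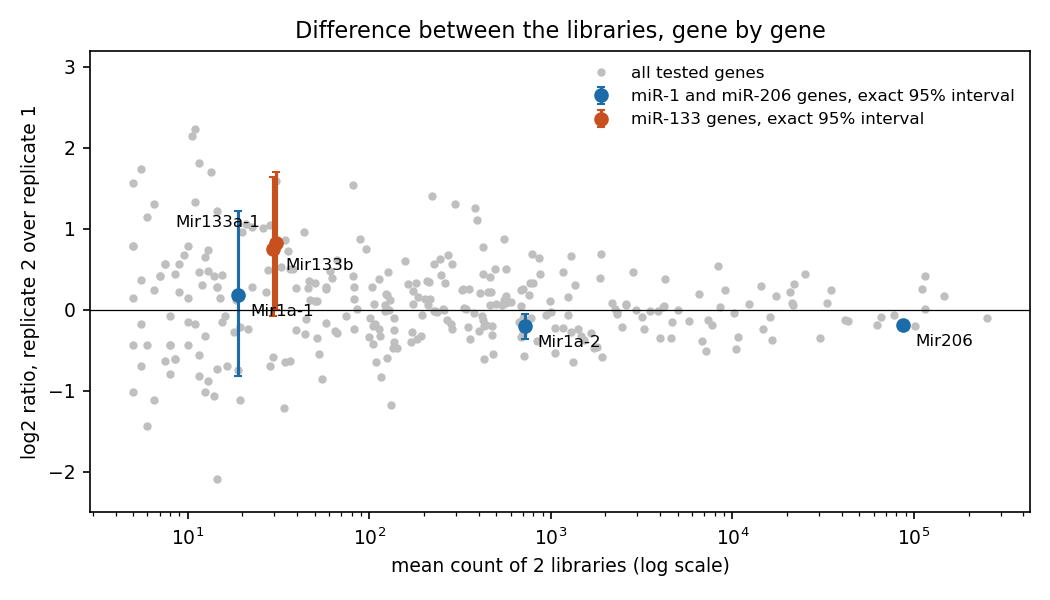
Log2 ratio of replicate 2 over replicate 1 against the mean count of the 2 libraries (log scale), for all 313 tested genes (grey) and for the 5 tested miR-1, miR-206 and miR-133 genes with exact 95% intervals. Mir206 and Mir1a-2 lie just below 0 at -0.19 and -0.20, and the intervals of Mir133a-1, Mir133b and Mir1a-1 reach across 0.

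Other striated muscle miRNAs differed between the libraries in both directions. By the binomial test, which carries counting error only, 2 of 4 further genes were higher in replicate 2, 1 was lower and 1 did not pass. Over all tested genes 120 of 313 (38.3%) passed that test, and the edgeR exact negative binomial test called 0. Mir486, in the ankyrin gene Ank1, had 1227 and 1372 counts and was lower at a log2 ratio of -0.27 (binomial test adjusted p = 7.48e-06). Mir499, of the slow myosin gene Myh7b, had 499 and 1084 counts and was higher at 0.69, and Mir208b, of the slow myosin gene Myh7, had 136 and 454 counts and was higher at 1.31. The cardiac Mir208a had 5 and 9 counts. The markers of other cells also differed between the libraries: Mir126a was higher in replicate 2 at 0.17, Mir143 at 0.42, Mir145a at 0.54, Mir451a at 1.11 and Mir144 at 0.75. Of the 3 leukocyte genes 2 were higher, Mir223 at 0.51 and Mir142 at 0.44, and Mir150 was lower at -0.47. Their part in the lower share of Mir206 was not tested, and in whole muscle fewer cells of a type and less RNA per cell cannot be told apart.

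The genes nearest to Mir206 in level over both libraries, by Euclidean distance of log2(CPM + 1) over 2 libraries, were Mirlet7i, Mirlet7g and Mir23a. Mirlet7i had 45601 and 43367 CPM at a distance of 0.25, and Mirlet7g had 62346 and 53968 CPM at 0.31. Mir23a, at 0.54, had 56667 and 67128 CPM and so differed between the libraries in the other direction. With 2 libraries this likeness describes levels only.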

How the data were processed

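MicroRNA-seq counts of 2 gastrocnemius libraries were used. The authors deposited whole-number read counts for each miRNA gene, not normalized; the assembly mm10 and annotation GENCODE M21 are as stated per the file headers of the deposited description. For the aligner, nothing is given in the sources used here. From the values, the 3 count columns hold reads without regard to strand, on the gene strand (used here) and on the opposite strand. Summary rows (80.1% of reads in replicate 1, 79.4% in replicate 2) stayed out of library sizes and tests. All 2202 gene identifiers matched GENCODE M21, which gave symbols, coordinates and hairpins; mature arms came from RefSeq.

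Libraries were compared with an exact two-sided binomial test, with shares from TMM sizes over all gene rows (edgeR 4.0.16, R 4.3.3), and Benjamini-Hochberg adjustment over the 313 genes with at least 10 counts in all, at a threshold of 0.05. DESeq2 1.42.0 size factors, other filters, the column without strand and leaving out each library were tried as alternatives. Other intervals are exact Clopper-Pearson or Poisson intervals (scipy 1.17.1). A count of 0 allows up to 3 counts. Named genes were the 8 members, 4 further striated muscle miRNAs, the cell type markers, the 3 genes nearest to Mir206 and genes opposite a member. Mir6349 and Mir6382 were added after their values were seen, and host genes are named from the annotation. The members and lists were chosen with earlier results of these data known. Folding used RNAfold 2.7.2.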

Additional observations from a re-analysis of the deposited data

How the results depend on the processing

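Mir206 stayed lower in replicate 2 under all 6 alternatives, with log2 ratios from -0.24 to -0.17, and passed the threshold in 5. Mir1a-2 stayed lower in the 5 alternatives that gave a value and passed in 4 (binomial test adjusted p from 0.00385 to 0.0460); without regard to strand it had no counts. For both, the exception was the edgeR exact negative binomial test, with adjusted p = 1, which called 0 genes higher and 0 lower among all tested genes, with 15 at an unadjusted p under 0.05, against 62 and 58 by the binomial test. TMM over the tested genes only, chosen after seeing the data, gave 53 higher and 68 lower. Scaled to all reads in place of gene counts, the 8 genes together fell from 50414 to 10198 and Mir206 to 10105, because the denominator then holds all reads. Without regard to strand they had 66907 and 66845 CPM, since fewer reads are in gene rows. The log2 ratio of Mir1a-2 over Mir133a-1 reversed to -5.83 in that column, where Mir1a-2 is at 0. Leaving out each library gave 46543 and 53367 CPM for Mir206. No paired analysis was possible because there is 1 group. Counts under 50 limit what can be said of Mir1a-1 and every miR-133 gene.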

Other observations

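The hairpins of these genes differ in base composition and in predicted folding. GC content ran from 33.3% in Mir1a-2 to 56.3% in Mir133b, against a median of 50.8% over all 2202 miRNA genes. By minimum free energy per base (RNAfold), Mir133b had the most stable hairpin of the 8, at -0.494 kcal/mol per base, and Mir206 followed at -0.434. Mir1b had the least stable, at -0.284, and Mir133a-2 the next, at -0.327, against a median of -0.369 over all genes and -0.433 over the 267 genes with at least 10 counts in both libraries. Mir133b, with the most stable fold of the 8, had 18 and 41 counts, and Mir1a-2, with 660 and 775, stood at -0.343. These energies are for the annotated hairpins, whose lengths run from 68 to 122 bases.

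Outside the miR-1 and miR-206 family, 2 other genes in the RefSeq table carry the seed of miR-206-3p, GGAAUGU, namely Mir6349 and Mir6382, which were looked up after the counts were seen. Both had 0 counts in both libraries, where the limit that a count of 0 allows was 2.01 CPM in replicate 1 and 1.48 in replicate 2. No other gene in that table carries the seed of miR-133b-3p, but Mir133a-1, Mir133a-2 and Mir133c were not matched to arms there. The nearest match of miR-133b-3p, in the Mir133a-1 hairpin, had 0 mismatches in the seed.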
